A study of Graphilbum sp. with 6 samples.

Results

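Histone and chromatin regulator genes were followed in hyphae of Graphilbum sp., a filamentous fungus of the order Ophiostomatales, kept with or without the pine wilt nematode Bursaphelenchus xylophilus. The 51 members were taken by their best-hit descriptions from 26694 assembled features. Each matched a chromatin word (such as histone, chromatin, SET domain, bromodomain or SIR2) and had its best hit in Sporothrix, Grosmannia, Ophiostoma or Esteya, genera of the same order. These genera held 4613 features, called the class below. Of the members, 28 had their hit in Sporothrix, 19 in Grosmannia, 4 in Ophiostoma and 0 in Esteya. A best hit gives similarity of sequence and does not show which organism made a transcript.

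The hyphae were grown on potato dextrose agar for 5 days at 28 °C and washed in phosphate-buffered saline, in all 6 libraries. The labels then give 24 h without nematodes for the 3 control libraries and 24 h with about 300 nematodes for the 3 nematode libraries. A strain name is not given in the sources used here, and the protocol text does not say what made the replicates separate, so p-values measure the spread between these libraries, which may be technical. The study asked how the fungus responds to the nematode.

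In a fungal nucleus, DNA is wrapped around octamers of the core histones H2A, H2B, H3 and H4, and the linker histone H1 binds where DNA enters and leaves that particle. Acetyltransferases and deacetylases add and remove acetyl groups on histone tails, methyltransferases of the SET family add methyl groups to lysines, and proteins with bromodomains, chromodomains or PHD fingers bind tails that carry such marks. Remodelling complexes such as SWI/SNF, RSC and INO80 use ATP to move, evict or exchange histones, and assembly factors place new histones on DNA behind the replication fork.

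Values are given as rescaled TPM, that is, TPM (a length-scaled share of transcripts) after division of every library by a factor (the median, over class features, of the ratio to the geometric mean of the 6 libraries), with class totals set to average 1e+06. Values of a group are always listed in the order of replicates 1, 2 and 3. The rescaling was used because the class took 68.5% to 70.0% of TPM in the controls and 28.7% to 39.4% in the nematode libraries. Control replicate 3 stood apart. With all libraries, 28 class features rose and 2 fell, and without this library 337 rose and 312 fell (limma, adjusted p under 0.05). Of the hyphal marker words fixed for the check, chitin synthase and septin matched features in every library, with summed TPM of 178.9 to 231.1 and 342.6 to 391.5 in the controls and of 126.6 to 255.7 and 225.7 to 307.8 with nematodes. Glucan synthase, hydrophobin and Woronin body each matched 1 feature outside the class, listed at 0 in every nematode library. Across the controls, glucan synthase had 2.97, 0 and 0 TPM, hydrophobin 0.91, 11.4 and 0, and Woronin body 6.07, 4.77 and 0.17. In control replicate 3 they were thus also at 0 or near it. The nematode words matched 0 features. A match needs a best hit described by such a word, so this does not show that nematode RNA was absent.

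No histone or chromatin member passed the test. All 51 members reached at least 1 rescaled TPM in at least 3 libraries and were tested, and 0 rose and 0 fell (limma, adjusted p under 0.05), where 0.613% and 0.0438% of the 4568 class features tested rose and fell. At an unadjusted p under 0.05, 6 members were higher with nematodes and 2 lower, which is 11.8% and 3.92% of the members beside 7.07% and 3.74% of the class. Those higher were histone H3, histone H1, a chromatin assembly subunit, the catalytic subunit of a type B histone acetyltransferase, a histone-lysine N-methyltransferase and a PHD finger protein. A histone deacetylase and a component of a histone acetyltransferase complex were lower.

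Differences were small throughout. The log2 fold change (nematode minus control) ran from -0.65 to 0.53, with a median of 0.07 over the members and -0.03 over the class, and was above 0 for 31 members, or 60.8%, against 44.8% of the class. It lay within 0.5 of 0 for 49 members, or 96.1%, against 91% of the class, and past 1 for 0 members against 2.08% of the class. For 48 members the 95% interval lay wholly within 1 of 0, so that a 2-fold difference lay outside it. This held for 85.7% of the class. The 3 exceptions were both HOS3 deacetylases and a histone transcriptional corepressor. The groups did not overlap for 8 members that were higher and 5 that were lower, 15.7% and 9.80% of the members beside 10.5% and 7.79% of the class. The spread between libraries of a group was also alike, with a median SD of 0.16 on the log2 scale over the members and 0.20 over the class.

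**Figure D1:**
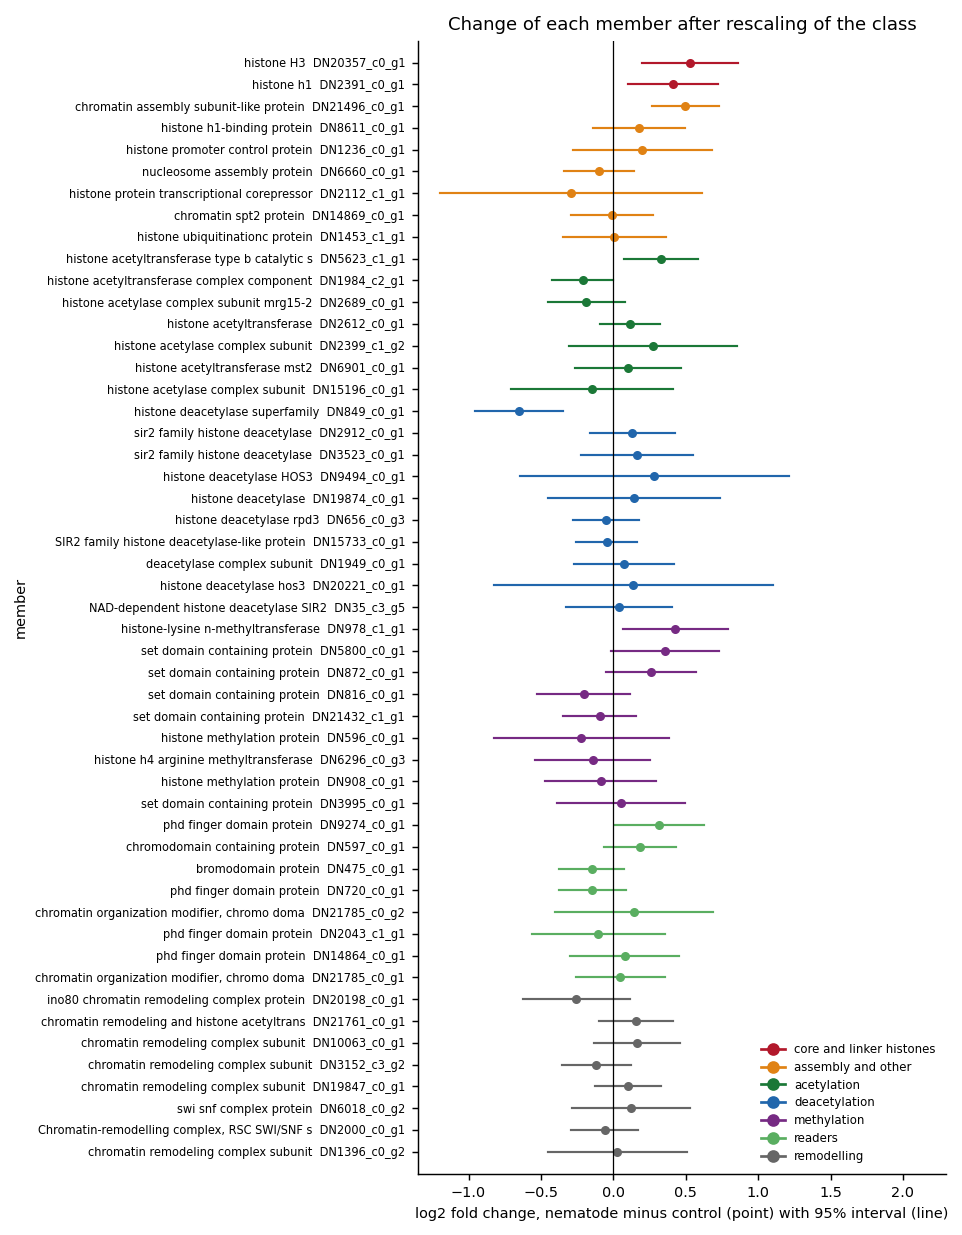
Log2 fold change (nematode minus control, horizontal axis) of each of the 51 members after rescaling of the class, with its 95% interval from limma as a line, coloured by role group. Points run from -0.65 to 0.53, and the intervals of 48 members lie wholly between -1 and 1.

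**Figure D2:**
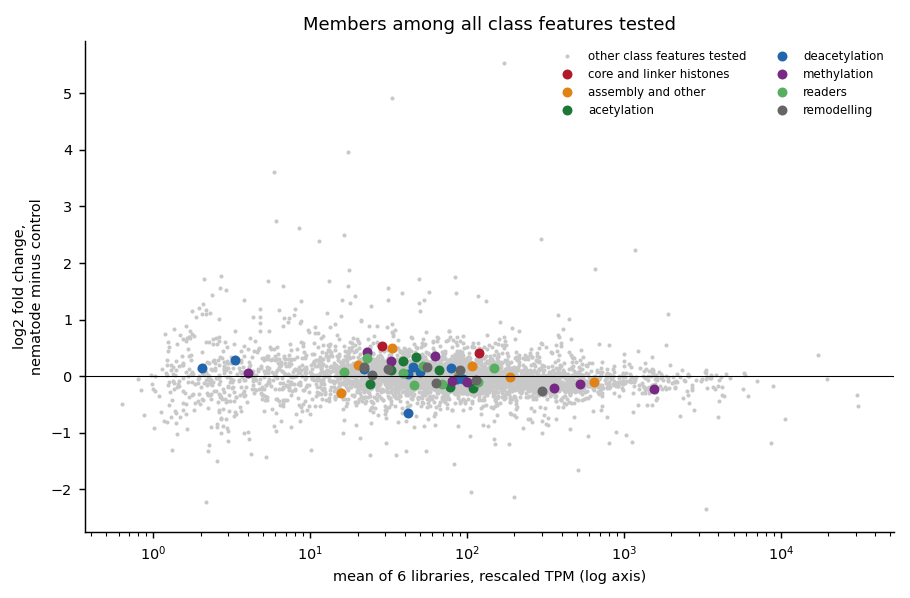
Mean rescaled TPM of the 6 libraries (log axis) against the log2 fold change for all 4568 class features tested (grey) and the 51 members (coloured by role group). The members lie in the dense middle band of the class, and 0 of them lie past 1.

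Mean member levels ran from 2.05 to 1551 rescaled TPM, and the median member stood at 52.4 rescaled TPM beside 72.0 in the class. A histone methylation protein (TRINITY_DN596_c0_g1) was the most abundant at a mean of 1551 rescaled TPM, above 98.0% of the class features tested. The nucleosome assembly protein had 640.1, the histone H4 arginine methyltransferase 525.9, a SET domain protein (TRINITY_DN816_c0_g1) 356.7 and an INO80 complex protein 300.4. The lowest were a pair of deacetylases described as HOS3, at 2.05 and 3.33. As a share of class transcripts, the members together took 0.634%, 0.618% and 0.537% across the controls and 0.607%, 0.615% and 0.622% across the nematode libraries, with the lowest share in control replicate 3. The nematode libraries lay inside the range of the 3 controls, but those of replicates 1 and 2 lay below both other controls.

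Both histone proteins of the class were higher in every nematode library than in every control. Histone H3 (TRINITY_DN20357_c0_g1), a core histone by its description, had 22.1, 25.6 and 21.9 rescaled TPM in the controls and 34.9, 29.0 and 38.1 with nematodes. Its log2 fold change was 0.53 ± 0.14 SE with a 95% interval of 0.20 to 0.86 (limma, adjusted p = 0.224). A histone H4 feature with its hit outside the class (TRINITY_DN943_c0_g1) had 2384 to 3627 rescaled TPM. Whether the H3 feature is the main H3 of the fungus was not tested. The linker histone H1 (TRINITY_DN2391_c0_g1) had 91.6, 105.2 and 109.4 in the controls and 134.6, 119.4 and 155.7 with nematodes. Its log2 fold change was 0.41 ± 0.13 SE (0.10 to 0.72; limma, adjusted p = 0.313). For both histones, nematode replicate 2 was the lowest of its group and replicate 3 the highest. H1 passed without control replicate 3 (log2 fold change 0.46, adjusted p = 0.0478), and H3 did not (0.49, adjusted p = 0.0581).

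Among the 7 members for histone deposition and other chromatin tasks, the chromatin assembly subunit-like protein (TRINITY_DN21496_c0_g1) had the smallest unadjusted p of all members. Chromatin assembly factors place histones H3 and H4 on newly copied DNA. The feature had 27.7, 26.0 and 28.0 rescaled TPM in the controls and 38.9, 39.5 and 38.0 with nematodes, which gave a log2 fold change of 0.50 ± 0.10 SE (0.27 to 0.73; limma, adjusted p = 0.113). The 3 libraries of each group lay close together and the groups did not overlap, and without control replicate 3 it passed (0.52, adjusted p = 0.0201). The abundant nucleosome assembly protein (TRINITY_DN6660_c0_g1), a carrier of histones, had 662.2 ± 43.8 and 617.9 ± 17.0 (SD, n = 3), with overlapping groups. The chromatin SPT2 protein (TRINITY_DN14869_c0_g1), named for a yeast factor that binds histones during transcription, had 189.1 ± 26.0 and 186.7 ± 5.86 (SD, n = 3). A histone ubiquitination protein (TRINITY_DN1453_c1_g1) had 87.9 ± 17.5 and 87.4 ± 5.62. For both, control replicate 3 was the highest library.

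Features of HIR gave no call with all libraries either. In budding yeast this complex represses histone genes outside S phase and deposits histones independently of replication. The histone promoter control protein (TRINITY_DN1236_c0_g1), the name of a HIR partner in budding yeast, had 16.4, 15.4 and 24.4 rescaled TPM in the controls and 18.3, 23.5 and 22.3 with nematodes (limma, adjusted p = 0.765). The related HIRA/HIR1 feature (TRINITY_DN9085_c0_g1), which the word rule left out, had 20.1, 18.5 and 21.1 against 22.0, 26.1 and 25.0 (adjusted p = 0.485). Its groups did not overlap. Without control replicate 3 its log2 fold change was 0.32, with an unadjusted p under 0.05 (limma), and it did not pass. A histone protein transcriptional corepressor (TRINITY_DN2112_c1_g1) had 13.6, 10.04 and 31.2 against 11.8, 15.5 and 12.5. Its control replicate 3 exceeded every other library by at least 2-fold, and its log2 fold change was -0.29 with all libraries and 0.16 without that one. The histone H1-binding protein (TRINITY_DN8611_c0_g1), not a HIR feature by its name, had 91.0, 92.1 and 120.6 against 106.9, 120.9 and 113.8. It passed without control replicate 3 (log2 fold change 0.31; limma, adjusted p = 0.0476).

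Of the 7 acetylation members, 4 had a log2 fold change above 0 and the range was -0.21 to 0.33. The type B catalytic subunit (TRINITY_DN5623_c1_g1) belongs to a kind of acetyltransferase that, in yeast, modifies new histone H4 before it is placed on DNA. It had 42.6, 43.8 and 38.0 rescaled TPM in the controls and 55.4, 53.4 and 48.3 with nematodes, which gave a log2 fold change of 0.33 ± 0.11 SE (limma, adjusted p = 0.323). Every nematode library was above every control. A histone acetyltransferase complex component (TRINITY_DN1984_c2_g1) went the other way, with 120.7, 113.1 and 115.2 in the controls and 105.1, 95.7 and 100.6 with nematodes. Its log2 fold change was -0.21 ± 0.09 SE (adjusted p = 0.461). The groups also did not overlap for the MRG15-2 subunit (TRINITY_DN2689_c0_g1; 83.1 ± 9.59 against 72.7 ± 3.07, SD, n = 3), named for a protein that binds methylated histone H3. The same held for a histone acetyltransferase (TRINITY_DN2612_c0_g1; 63.3 ± 1.25 against 68.6 ± 2.44, SD, n = 3). MST2 (TRINITY_DN6901_c0_g1), named for a fission yeast acetyltransferase of histone H3, overlapped between groups at 31.5 ± 5.77 and 33.7 ± 3.16 (SD, n = 3). So did the acetylase complex subunits TRINITY_DN2399_c1_g2 (30.4, 26.8 and 50.8 against 39.3, 49.5 and 38.2) and TRINITY_DN15196_c0_g1 (25.4 ± 7.67 and 22.4 ± 3.74), both highest in control replicate 3.

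**Figure D3:**
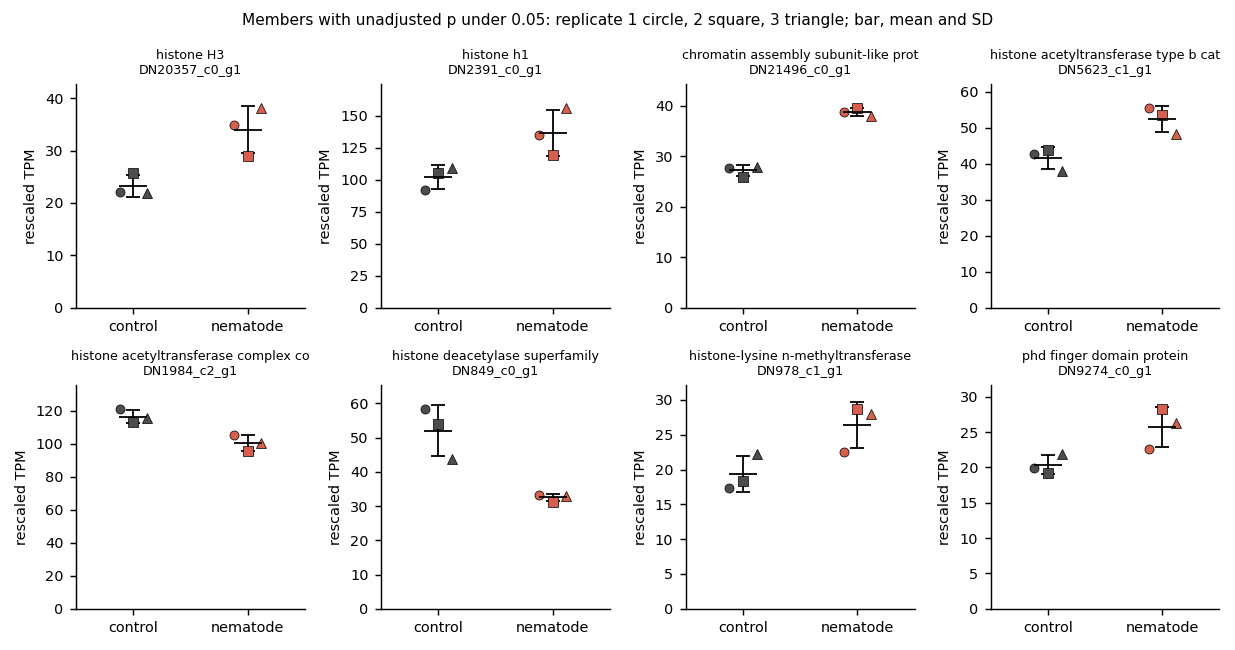
Rescaled TPM (vertical axes from 0) of the 8 members with an unadjusted p under 0.05 in control and nematode libraries. Symbols are replicates 1 (circle), 2 (square) and 3 (triangle), and bars are the mean and SD; the groups do not overlap in any panel, and 6 members are higher and 2 lower with nematodes.

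The largest difference of any member was that of a deacetylase. The histone deacetylase superfamily feature (TRINITY_DN849_c0_g1) had 58.3, 53.9 and 43.9 rescaled TPM in the controls and 33.3, 31.3 and 33.0 with nematodes, which gave a log2 fold change of -0.65 ± 0.13 SE (-0.96 to -0.34; limma, adjusted p = 0.115). All nematode libraries lay below all controls, and control replicate 3 was the nearest to them. Without it the log2 fold change was -0.77 and the feature passed (adjusted p = 0.00584).

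The other 9 deacetylation members overlapped between groups. RPD3 (TRINITY_DN656_c0_g3), named for the deacetylase of the large and small repressor complexes of budding yeast, had 84.2, 89.8 and 89.4 rescaled TPM in the controls and 79.3, 91.5 and 84.2 with nematodes. Its log2 fold change of -0.05 had a 95% interval of -0.28 to 0.18. Of the 4 members with SIR2 in their names, the NAD-dependent class that links deacetylation to NAD supply, TRINITY_DN15733_c0_g1 had 94.98 ± 2.29 and 92.1 ± 4.76 (SD, n = 3). TRINITY_DN2912_c0_g1 had 21.1 ± 1.53 and 23.2 ± 2.09, TRINITY_DN3523_c0_g1 had 42.6 ± 8.82 and 47.3 ± 4.51, and TRINITY_DN35_c3_g5 had 41.6 ± 7.73 and 42.4 ± 3.75 (SD, n = 3). The deacetylase complex subunit TRINITY_DN1949_c0_g1 had 49.3 ± 8.99 and 51.4 ± 3.44. The HOS3 features TRINITY_DN9494_c0_g1 and TRINITY_DN20221_c0_g1 had the lowest mean levels of all members, and the log2 fold change intervals of -0.65 to 1.21 and -0.83 to 1.10 were the widest of the 51. A further deacetylase (TRINITY_DN19874_c0_g1) had 57.5, 60.4 and 112.1 in the controls and 76.3, 85.3 and 81.3 with nematodes. Here control replicate 3 was the highest of the 6 libraries and the other controls the lowest, and the feature was higher with nematodes without that library (log2 fold change 0.45, adjusted p = 0.0229) and not with it (0.15, adjusted p = 0.861).

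Among the 9 methylation members, a histone-lysine N-methyltransferase (TRINITY_DN978_c1_g1) had 17.4, 18.4 and 22.3 rescaled TPM in the controls and 22.6, 28.7 and 28.0 with nematodes. Its log2 fold change was 0.43 ± 0.15 SE (limma, adjusted p = 0.363). The groups stood apart by a small margin, between control replicate 3 and nematode replicate 1. SET domain proteins, named for the catalytic fold of most lysine methyltransferases, lay on both sides of 0. TRINITY_DN5800_c0_g1 had 54.7 ± 10.2 and 69.8 ± 6.34 (SD, n = 3), and TRINITY_DN816_c0_g1 had 381.8 ± 41.5 and 331.6 ± 41.8. TRINITY_DN872_c0_g1 had 29.6 ± 4.52 and 35.5 ± 0.968 (SD, n = 3). The remaining SET domain features, TRINITY_DN21432_c1_g1 and TRINITY_DN3995_c0_g1, had log2 fold changes of -0.10 and 0.05.

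The most abundant methylation members were uneven within the controls. The histone methylation protein TRINITY_DN596_c0_g1 had 1913, 2033 and 1121 rescaled TPM in the controls and 1530, 1168 and 1543 with nematodes, so the controls spanned the whole nematode range (limma, adjusted p = 0.802). The histone H4 arginine methyltransferase (TRINITY_DN6296_c0_g3), which by its name methylates an arginine of the H4 tail, had 615.1, 626.5 and 425.1 against 513.7, 469.5 and 505.6. Its control replicate 3 was the lowest library and the other controls the highest. The second histone methylation protein (TRINITY_DN908_c0_g1) had 71.5, 73.5 and 105.5 against 78.2, 80.7 and 73.2, with control replicate 3 the highest. Without that library the arginine methyltransferase was lower with nematodes (log2 fold change -0.32, adjusted p = 0.0384), and with it the value was -0.14 (adjusted p = 0.807).

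Of the 8 readers of histone marks, 5 had a log2 fold change above 0. A PHD finger protein (TRINITY_DN9274_c0_g1), of a zinc-binding fold that often binds the H3 tail, had 20.0, 19.3 and 21.9 rescaled TPM in the controls and 22.6, 28.2 and 26.3 with nematodes. The groups did not overlap, and the log2 fold change was 0.32 ± 0.13 SE (limma, adjusted p = 0.456). They also did not overlap for the chromodomain protein TRINITY_DN597_c0_g1 (49.0 ± 4.58 against 55.7 ± 1.39, SD, n = 3), whose fold binds methylated lysines, and for the bromodomain protein TRINITY_DN475_c0_g1 (48.0 ± 1.89 against 43.2 ± 2.07), whose fold binds acetylated lysines. Another PHD finger protein (TRINITY_DN720_c0_g1) had 73.2 ± 6.07 and 66.0 ± 1.30 (SD, n = 3). The chromo domain features TRINITY_DN21785_c0_g1 and TRINITY_DN21785_c0_g2 come from the same assembly component, so they may share sequence, and both overlapped between groups, at 38.6 ± 4.82 against 39.7 ± 3.39 and 142.5 ± 36.9 against 155.1 ± 30.4 (SD, n = 3). The other PHD finger proteins also overlapped. TRINITY_DN2043_c1_g1 had 104.1, 102.0 and 165.2 in the controls and 115.1, 115.4 and 106.6 with nematodes, and TRINITY_DN14864_c0_g1 had 15.9 ± 2.97 and 16.7 ± 0.982 (SD, n = 3).

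The log2 fold changes of the 8 remodelling members ran from -0.26 to 0.16, and the groups overlapped for all of them. The INO80 complex protein (TRINITY_DN20198_c0_g1), of a remodeller that exchanges and spaces nucleosomes, had 354.1, 370.6 and 260.8 rescaled TPM in the controls and 298.2, 257.1 and 261.7 with nematodes (log2 fold change -0.26 ± 0.16 SE; limma, adjusted p = 0.625). Its control replicate 3 lay within the nematode range, and without that library it passed as lower (-0.41, adjusted p = 0.0308). The RSC SWI/SNF subunit Rsc7/Swp82 (TRINITY_DN2000_c0_g1) had 116.4 ± 7.53 and 111.5 ± 6.97 (SD, n = 3), and a SWI/SNF complex protein (TRINITY_DN6018_c0_g2) had 30.1 ± 7.03 and 32.3 ± 2.32. A subunit of remodelling and acetyltransferase complexes (TRINITY_DN21761_c0_g1) had 52.6 ± 3.04 and 58.7 ± 5.34, and the remodelling subunits TRINITY_DN10063_c0_g1, TRINITY_DN3152_c3_g2, TRINITY_DN19847_c0_g1 and TRINITY_DN1396_c0_g2 had log2 fold changes of 0.16, -0.12, 0.10 and 0.03.

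**Figure D4:**
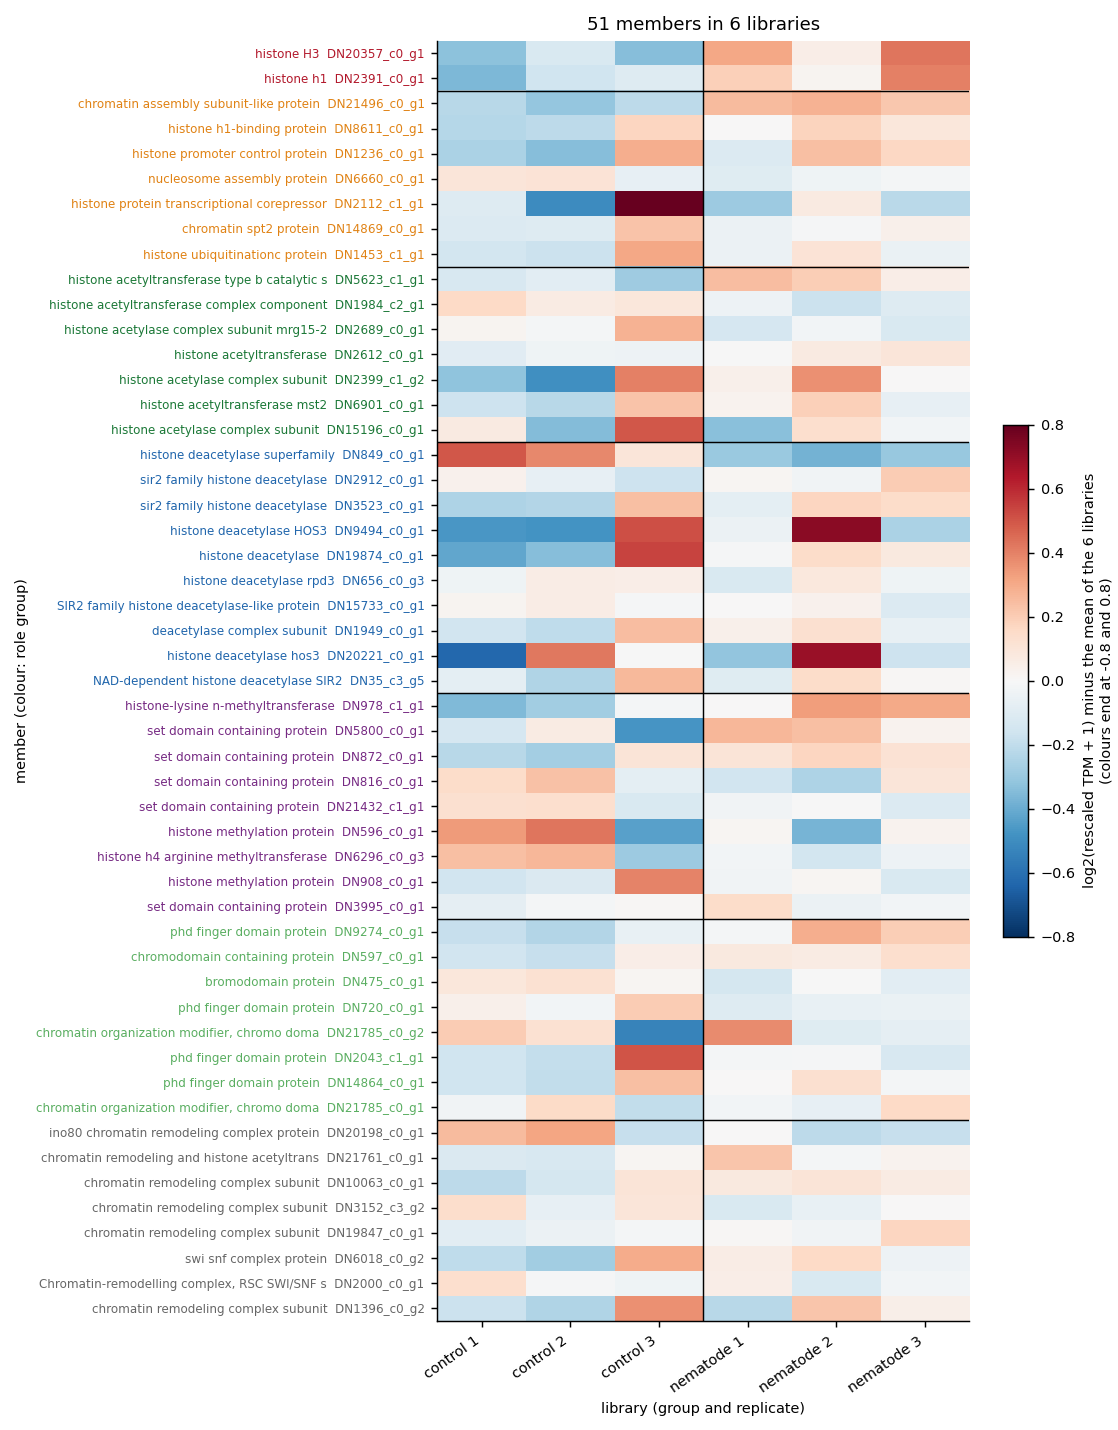
Log2(rescaled TPM + 1) of the 51 members (rows, by role group) in the 6 libraries (columns), each minus its mean over the libraries; red is above that mean and blue below. Control replicate 3 differs from control replicates 1 and 2 in many rows. It is the highest library for 19 members and the lowest for 9, and for 30.3% and 28.4% of the class. Control replicates 1 and 2 are the lowest for 12 and 18 members, and for 13.5% and 21.0% of the class.

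The calls turned on control replicate 3. This library was over 1.25 times the mean of the other controls for 19 members and under 0.8 times for 6, or 37.3% and 11.8%, where the class had 29.6% and 26.5%. Without it, 7 members rose and 3 fell (limma, adjusted p under 0.05), which is 13.7% and 5.88% of the members. The class then had 7.38% and 6.83%. At an unadjusted p under 0.05 these shares were 29.4% and 13.7% of the members beside 16.8% and 18.5% of the class. The 7 were histone H1, the chromatin assembly subunit, the H1-binding protein, a histone acetylase complex subunit (TRINITY_DN2399_c1_g2), the deacetylase TRINITY_DN19874_c0_g1, the histone-lysine N-methyltransferase and the SET domain protein TRINITY_DN872_c0_g1. The 3 were the deacetylase superfamily feature, the H4 arginine methyltransferase and the INO80 protein. With any 1 of the other 5 libraries left out instead, 0 members passed. Whether this difference among the controls came from culture, RNA or library was not tested, nor was which controls were unusual. Control replicates 1 and 2 had 9659 and 9255 features at 1 TPM or more, and control replicate 3 had 8339.

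**Figure D5:**
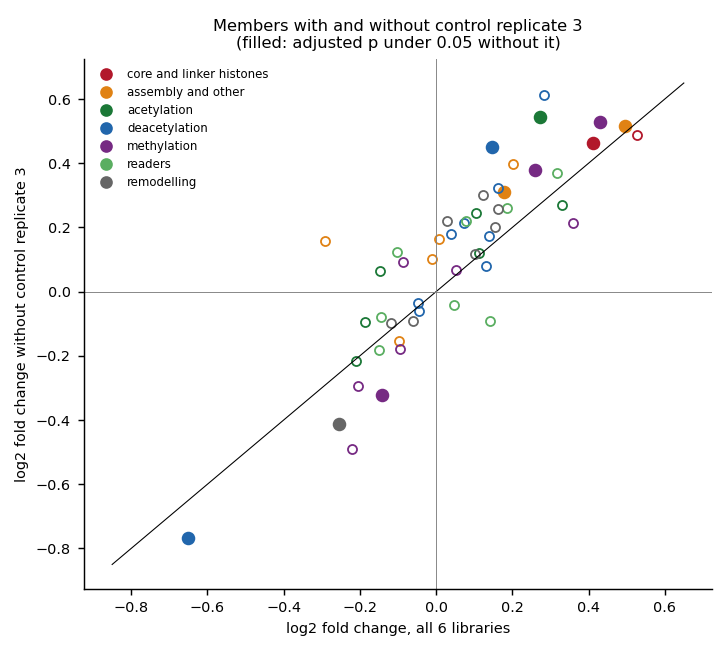
Log2 fold change of each member with all 6 libraries (horizontal axis) against that without control replicate 3 (vertical axis), coloured by role group, with the line of equal values. The 10 filled points are the members past the threshold without that library, 7 above 0 and 3 below.

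In TPM as deposited, where the whole library sums to 1e+06, all 51 members had a log2 fold change below 0, with a median of -0.72 beside -0.82 over the class. In that fit 38 members were lower (limma, adjusted p under 0.05), or 74.5% of the members beside 78.8% of the class and 25.5% of all 21817 features tested. Members that were higher numbered 0, beside 0.471% of the class and 61.4% of all features. All 8 remodelling members were lower, 7 of 8 readers, 7 of 9 methylation members, 6 of 7 acetylation members, 6 of 10 deacetylation members and 4 of 7 of the assembly group. Histones H3 and H1 were not past the threshold, at 15.3 and 12.7 TPM (adjusted p = 0.180) and 67.4 and 51.1 TPM (adjusted p = 0.0957) in the control and nematode means. TPM is a share, so fewer fungal cells, less RNA per cell and more RNA of other origin cannot be told apart in bulk libraries. With TMM scaling (trimmed mean of M values) over all features, 50 members were tested, and 3 were higher and 1 lower. In that fit 3.71% of the class and 63.7% of all features were higher, and 2.29% and 1.38% lower.

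The same words matched 45 features with best hits outside the class, and the most abundant histone and histone-fold features were among these. A histone-fold protein with a hit in Ascodesmis (TRINITY_DN1267_c1_g2) stood at 2253, 2538 and 2408 TPM in controls and 1424, 1814 and 2091 with nematodes. Histone H4 (TRINITY_DN943_c0_g1, hit in Valsa) had 1662, 1867 and 1595 against 994.4, 1120 and 1441. The non-histone chromosomal protein 6 feature (TRINITY_DN615_c0_g1, hit in Neurospora), of a family of DNA-bending HMG-box proteins, had 1533, 1647 and 1061 against 791.3, 948.8 and 1068. With the class factors applied, these 3 features had log2 fold changes of 0.39, 0.29 and 0.26 and did not pass (adjusted p = 0.523, 0.658 and 0.749; limma over the 7328 features of any hit with at least 1 rescaled TPM in every library, a fit chosen after seeing the data). In that fit 0.546% of features rose and 0.0409% fell. The class histone H3 was far less abundant, and the 5 H3 features with other hits had at most 0.84 TPM in any control. Histone transcription regulator 3 (TRINITY_DN2112_c1_g3, hit in Madurella), the name of a HIR subunit, shares its assembly component with the corepressor member. It had 47.6, 34.3 and 105.8 rescaled TPM in the controls and 58.3, 64.5 and 46.2 with nematodes, again highest in control replicate 3.

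Of the 45 features, 9 had hits in 7 genera of Hypocreales, another order of fungi. One of them, GCN5 (TRINITY_DN5724_c0_g1, hit in Fusarium), an acetyltransferase, had 15.9, 14.5 and 20.9 TPM in controls and 7.94, 11.8 and 10.2 with nematodes. The other 8, set apart after their values were seen, were described as nucleosome assembly proteins, histones H1, H2A, H2B and H4 and non-histone chromosomal protein 6. They had 1.82 to 31.7 TPM in control replicate 1 and 1.86 to 25.7 in control replicate 2, and at most 0.75 in control replicate 3 and 0.42 in any nematode library. Over the controls the TPM of these 8 summed to 95.5, 75.7 and 1.65. Whether this RNA bears on the values of the members was not tested.

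Related genes of the class, outside the word rule, were set beside the members. Of 24 S-phase genes, 21 had a log2 fold change above 0, with a median of 0.31, and 13 had an unadjusted p under 0.05 as higher and 0 as lower. In the class 44.8% were above 0, and 7.07% and 3.74% had such a p as higher and lower. The large subunit of DNA primase (TRINITY_DN1997_c0_g2), which starts new DNA strands, rose from 45.2, 52.1 and 49.3 to 78.5, 78.2 and 82.0 rescaled TPM (log2 fold change 0.69 ± 0.10 SE; limma, adjusted p = 0.0368). It did not pass without control replicate 1 or 2 or any nematode library (adjusted p = 0.117 to 0.202). It was the only S-phase gene past the threshold with all libraries, and 9 passed as higher and 0 as lower without control replicate 3, where 7.38% of the class passed as higher.

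Genes of chromosome structure had 0 calls among 25, with a median of 0.09. Without control replicate 3, 3 of them were higher and 0 lower, where 7.38% and 6.83% of the class passed, and the median was 0.15. Topoisomerase 2 (TRINITY_DN7777_c0_g1), which untangles DNA, had 31.1 ± 4.81 and 40.4 ± 3.35 rescaled TPM (SD, n = 3; limma, adjusted p = 0.406). The kinetochore component CENP-O (TRINITY_DN1734_c0_g1) had 113.6 ± 13.9 and 141.8 ± 4.41 (SD, n = 3; adjusted p = 0.353). Words for acetyltransferase and general transcription complexes matched 23 genes, some of them described only as GCN5-related N-acetyltransferase, which names no complex. Of the 23, 0 passed and 16 had a log2 fold change below 0, with a median of -0.07. This direction turned without control replicate 3, where 14 lay above 0 with a median of 0.04. In the class 55.2% lay below 0 with all libraries, and 2269 of 4568 features lay above 0 without that one. In the latter fit 2 of the 23 passed as higher and 1 as lower, beside 7.38% and 6.83% of the class. Mediator subunit 8 (TRINITY_DN283_c2_g2), part of the bridge between activators and RNA polymerase II, had 32.9, 20.1 and 39.4 against 90.9, 54.8 and 60.4 (log2 fold change 1.15 ± 0.29 SE; adjusted p = 0.198). The groups did not overlap, although each was widely spread. Words for heterochromatin, DNA methylation and RNA silencing matched 2 features, a DNA methyltransferase 1-associated protein and an RNA-dependent RNA polymerase, and neither passed.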

How the data were processed

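The authors deposited TPM per library and the group means for 26694 features, per the file headers; the 2 columns of means were left aside. Names of features follow the Trinity assembler; for the aligner and quantification tool, no name or version is given in the sources used here. TPM keeps no read depth, so no counting interval is given. Groups and replicate numbers came from the sample titles.

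In R 4.3.3 with limma 3.58.1 (statmod 1.5.0 for robust fits, and TMM written out in R, with trims of 30% of ratios and 5% of levels), log2(rescaled TPM + 1) was fitted with a mean-variance trend and no covariate. Features with at least 1 rescaled TPM in at least 3 libraries were tested, with Benjamini-Hochberg adjustment over all of them and a threshold of 0.05. Fold changes on this scale understate low features. An exact permutation of 3 against 3 libraries cannot go below 0.1. On simulated class data with 4558 features tested, the fit called 74% of the 2-fold changes, 97% of the 4-fold changes and 8 features that had none. Low features were given no change there, and changes under 2-fold were not tried. Noise was drawn separately for each library and feature, so no simulated library stood apart as control replicate 3 did.

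Members were placed in role groups by keyword, with 6 placements corrected by hand from the descriptions. Named were the histones, up to 4 members per role group with the smallest p, the 5 most abundant and, of related lists, genes past the threshold or those of smallest p; other genes named were chosen after their values were seen. The members and lists were chosen with earlier results of these data known. Alternatives were pseudocounts, filters, scalings, empirical Bayes options, a replicate block and the omission of each library. In these omissions the scaling and the tested features were kept.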

Additional observations from a re-analysis of the deposited data

Results flagged for a closer look

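Features of the same chromatin words appeared in the nematode libraries alone. These 27 features, all with best hits outside the class, had at least 1 TPM in every nematode library and at most 0.25 TPM in any control. They were 60% of the 45 features of those words outside the class. Of all 22081 features outside the class, 60.2% likewise reached 1 TPM in every nematode library and in no control, so the share was that of the background. The number of features at 1 TPM or more was 8339 to 9659 in the controls and 22389 to 22612 in the nematode libraries. Summed over the 27, TPM was 847.3, 618.3 and 703.0 with nematodes (mean 722.8 ± 115.8, SD, n = 3) and 0, 0 and 0.25 without. The highest was a histone-fold protein with a hit in Tirmania (TRINITY_DN14906_c0_g1), at 314.3, 252.9 and 268.1 TPM, a mean of 278.4. A PHD finger-like domain protein 5A, a name used for a splicing factor (TRINITY_DN22050_c0_g1, hit in Spizellomyces), had 167.6, 95.8 and 123.6 TPM.

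Features described as a histone or only as a histone-fold protein made up 8 of the 27. Among them was histone H3 with hits in Mitosporidium (TRINITY_DN20513_c0_g1; 44.8, 24.3 and 33.2 TPM) and Tricholoma (TRINITY_DN9215_c0_g1; 29.9, 22.3 and 26.6 TPM). Histone modifiers included a JmjC domain histone demethylation protein (TRINITY_DN3608_c0_g1; 10.5, 7.61 and 8.64 TPM) and the acetyltransferase GCN5 of the SAGA complex (TRINITY_DN21957_c0_g1; 11.6, 9.51 and 8.90 TPM), and each was listed at 0 in all controls. No member had a demethylase word in its description. Members needed one of the chromatin words, and other class features were not searched for demethylase words.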

How the results depend on the processing

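With all libraries, 0 members passed in the class fit under every pseudocount, filter, scaling and empirical Bayes option and with the replicate block. Omitting each library in turn gave 0 to 7 members higher and 0 to 3 lower, 3 to 15 and 1 to 7 at an unadjusted p under 0.05, and a median log2 fold change of 0.0099 to 0.16; the upper ends came without control replicate 3. The named members did not pass with all libraries, and 495 of their 503 values under alternatives also stayed short of the threshold. The other 8 passed without control replicate 3. Dividing by the class total gave 12 higher at an unadjusted p, a member median of 0.21 and 41 members above 0, while the class median moved from -0.03 to 0.11; the difference of the medians stayed at 0.10. One member in place of 2 was lower at an unadjusted p after class total, TMM or quantile scaling, without the trend, with the block, and in the fit over any best hit (1 in each). Class features that rose numbered 28, and 12 with the block, 48 after class total scaling and 9 to 337 over the omissions; those that fell numbered 2, and 0 with the block, 0 after class total scaling, 1 with robust=TRUE and 0 to 312 over the omissions.

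In deposited TPM, 1 of 50 members tested was lower and 3 were higher after TMM (class features 2.29% and 3.71%), with a member median of 0.046, and quantile normalization gave a median of -1.70; the medians of all features were 2.00, 2.24 and -0.27. Omissions gave 26 to 39 lower. The cause of these shifts was not tested. Deviations of same-numbered libraries from their group means correlated at 0.15, -0.43 and -0.28. With 3 libraries in a group these correlations depend on each other, so they cannot show whether the libraries were paired. The replicate block left 6 members higher at an unadjusted p. TPM gives no depth, so what read number limits is unknown.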
